A study of Mus musculus with 9 samples.

Results

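The 10 genes described here are Atp1b1, Plaur, Cnn3, Tubb2b, Pdlim4, Dapl1, Igsf3, Khdrbs3, Amigo2 and Dapk1, out of 19072 genes tested on the arrays. They were chosen by the measured difference in signal between effector and naive cells on these same arrays, as genes with very large falls, so every level and difference against naive cells given for them is a description and carries no test. The genes are read by 12 probes, 2 each for Cnn3 and Tubb2b and 1 for each of the others. The study measured RNA of CD4+ T cells on 1-colour Agilent arrays, with 3 arrays each for Th1, Th17 and naive cells. The cells came from BALB/c mice, out of both spleen and lymph nodes. Th1 cells were sorted as CD3+ CD4+ cells with low CD45RB that were positive for interferon gamma and negative for IL-17A. Th17 cells came from the same CD45RB gate and had the opposite cytokine pattern. Naive cells were CD3+ CD4+ cells with high CD45RB, a form of the phosphatase CD45 that T cells lose after meeting antigen. All 3 populations, naive cells included, were kept for 3 h with the phorbol ester PMA at 10 ng/ml and the calcium ionophore ionomycin at 500 ng/ml before sorting, so every level is that of a stimulated cell. The number of animals behind a replicate is not given in the sources used here, so a p-value here speaks of the scatter among arrays of a group, which could be technical scatter.

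A naive T cell circulates between blood and lymphoid tissue until it meets its antigen, and an effector cell that arises from it makes cytokines and changes its surface and its cytoskeleton. The 10 genes belong to no single pathway. By role they fall into a subunit of the sodium pump (Atp1b1), a protease receptor (Plaur), proteins of the actin and microtubule cytoskeleton (Cnn3, Pdlim4, Tubb2b), adhesion proteins of the cell surface (Igsf3, Amigo2), proteins named for a part in cell death (Dapl1, Dapk1) and an RNA-binding protein (Khdrbs3).

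The sorted populations carried the RNA of their gates. Ifng averaged 9.12 in Th1 cells, 1.72 in Th17 cells and 1.42 in naive cells, and Il17a averaged -0.77 in Th1 cells, 9.24 in Th17 cells and -3.03 in naive cells, where a level is the log2 signal with the array's own 75th percentile set to zero. Cd3e was well above background on all 9 arrays, at a mean of 5.12 in Th1, 4.55 in Th17 and 2.92 in naive cells. Of 9 genes listed as markers of naive T cells, 7 fell, 1 rose and 1 did not pass in each effector population. Lef1, a transcription factor of naive T cells, averaged 0.85 in Th1 and 0.39 in Th17 cells, against 3.37 in naive cells (adjusted p = 6.44e-06 and 2.77e-06, limma with Benjamini-Hochberg adjustment over all genes). The exceptions, named after their values were seen, were Il7r, the IL-7 receptor, which rose by 1.99 and 2.84 (adjusted p = 7.38e-05 and 1.08e-05), S1pr1 in Th1 cells (adjusted p = 0.0504) and Satb1 in Th17 cells (adjusted p = 0.25). The share of probes detected well above background ranged over the arrays between 53.4% and 58.3%, 0 spots were saturated, and the number of arrays limits the precision. Arrays of the same group correlated with Pearson r of 0.98 to 0.99 over probes, and arrays of different groups with 0.93 to 0.97. Of marker lists for 7 other cell types, the CD8 and NK cell list was the 1 whose summed level was higher on every naive array than on every effector array, at -1.68 to -0.78 in Th1, -3.61 to -3.02 in Th17 and 0.28 to 0.65 in naive cells. The summed levels of the macrophage and monocyte, dendritic cell, and stromal and endothelial lists went the other way, with every effector array above every naive array (for the first, 4.69 to 4.99 in Th1 and 4.33 to 4.95 in Th17 cells, against 4.09 to 4.11 in naive cells). Their genes, named here after their values were seen, did not all rise. In the first list Itgam rose by 1.07 in Th1 and 0.80 in Th17 cells, and Cd14 by 3.06 in Th17 cells. Csf1r of that list differed by -0.72 and -0.77, and Zbtb46 of the dendritic cell list by -0.64 in Th17 cells (adjusted p = 0.00316, 0.00224 and 0.0152, limma). Siglech, the brightest gene of the dendritic cell list, did not pass in either population. Xcr1 rose by 3.38 in Th1 cells (adjusted p = 0.000239, limma). In the stromal and endothelial list Vcam1 rose by 8.46 in Th1 and 6.84 in Th17 cells (adjusted p = 2.13e-07 and 7.27e-07, limma). Col1a1 and Pecam1 did not pass against naive cells, and Col3a1, Pdgfrb and Cdh5 were above background on no array. In the CD8 and NK list 3 of 6 genes, Cd8a, Ncr1 and Klrb1c, were above background on no array. Cd8b1 and Eomes, named after their values were seen, were above background on all naive arrays. Cd8b1 differed by -3.31 in Th1 and -3.41 in Th17 cells (adjusted p = 1.88e-06 and 1.81e-06, limma). Eomes differed by -1.19 and -5.70 (adjusted p = 0.147 and 0.000143, limma). The part of these lists in the levels below was not tested, and in sorted populations fewer cells of a type and less RNA per cell cannot be told apart.

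All 10 genes lay lower on each of the 3 Th1 arrays and each of the 3 Th17 arrays than on any naive array. Over all genes tested, 37.3% had every Th1 array and 34.9% every Th17 array below every naive array, and the choice of the 10 genes fixed that direction. The sizes of the falls are therefore the description that remains. The median difference was -5.45 log2 units in Th1 cells and -5.78 in Th17 cells, beside a median over all genes of -0.093 and -0.087. A difference of at least 4 log2 units downward was found for 0.231% of all genes in Th1 cells and 0.32% in Th17 cells. Dapl1 in Th1 cells, at -2.81, did not reach that size. Dapk1 is not shown to reach it, with bounds (explained below) of 3.39 log2 units in Th1 and 3.74 in Th17 cells, nor did the second probe of Tubb2b, at -3.79 and -3.58.

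Whether the signal was lost or only reduced depended on the gene. Every gene was well above background on all 3 naive arrays. Atp1b1, Plaur, Cnn3 and Pdlim4 stayed above background on all 6 effector arrays as well, so for these 4 genes the name lost does not hold, and a reduced level was measured. Khdrbs3, Amigo2 and Dapk1 were above background on no effector array. Tubb2b was above background on all 3 Th17 arrays and no Th1 array, Dapl1 on all 3 Th1 arrays and no Th17 array, and Igsf3 on 2 Th1 arrays and 1 Th17 array. Where no array of a group was above background, the difference has only a lower bound, taken against the lowest signal above background on each array or the spot's own signal if that is higher. With those genes at their bounds, the median difference was -5.03 in Th1 and -5.12 in Th17 cells.

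**Figure D1:**
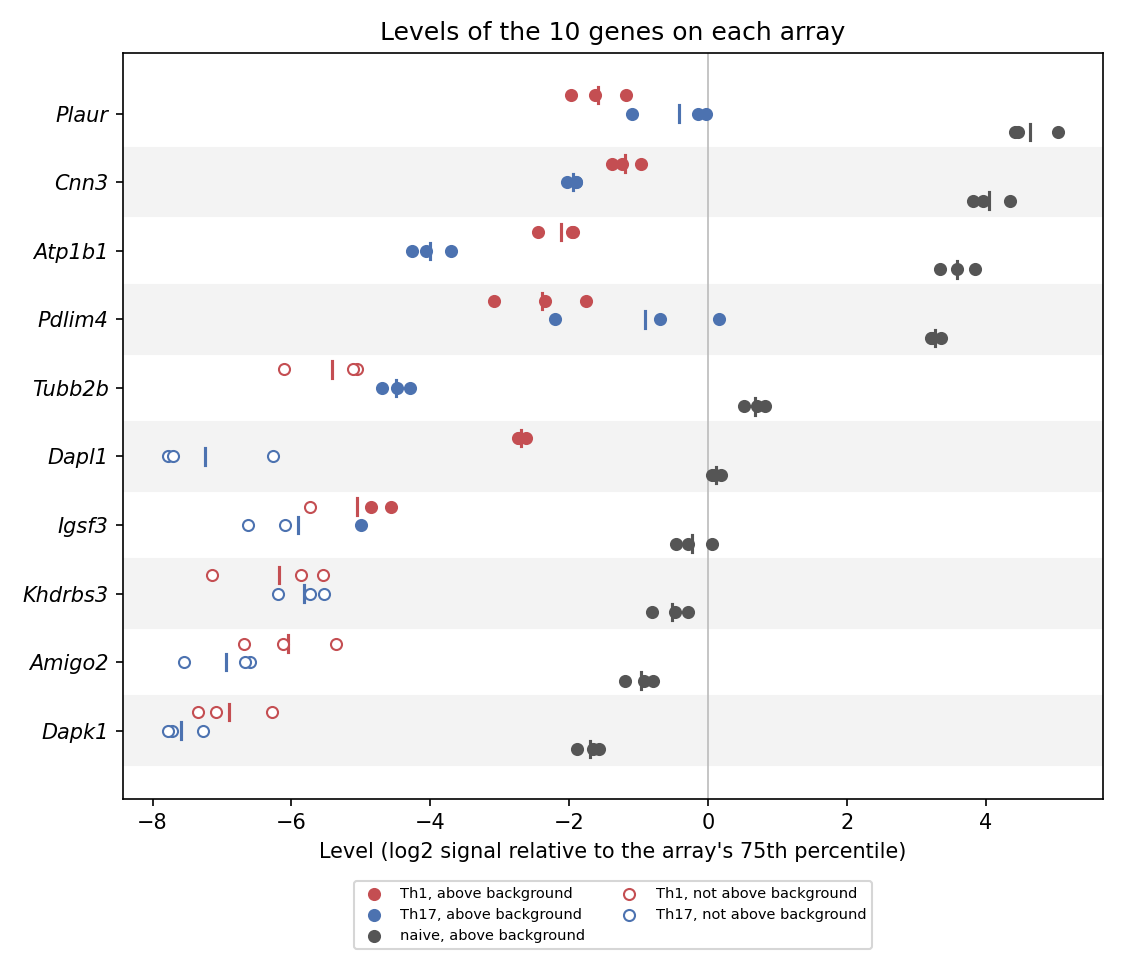
Level of each of the 10 genes on each of the 9 arrays, as log2 signal relative to the array's 75th percentile, for Th1, Th17 and naive cells from top to bottom within a gene; bars are group means of 3 arrays. Naive points lie to the right of all effector points for every gene, filled points are well above background, and Khdrbs3, Amigo2 and Dapk1 have open points on all 6 effector arrays. Levels of different genes come from different probes and are not to be set against each other.

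The arrays were run on several slides, and no slide held Th17 and naive cells together. Slide 1 held the 3 naive arrays with Th1 replicate 1, and within it the median difference of the 10 genes was -5.50, from -2.83 for Dapl1 to -6.27 for Plaur. With slide as a block, the median difference of Th17 from naive cells was -5.22. The size also depended on the background correction. After normexp correction of the raw spot signals, the medians were -2.25 in Th1 and -3.06 in Th17 cells, and -3.19 and -3.16 once the extreme local backgrounds had been replaced, a setting added after the data had been seen. The genes with dim effector signals shrank most: under those 2 settings Dapk1 stood at -0.97 and -1.95 in Th1 cells and at -1.63 and -1.75 in Th17 cells, and Amigo2 at -1.46 and -2.41 in Th1 cells and at -2.26 and -2.40 in Th17 cells. The "at least" folds given below hold for the processed signal only.

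Promoter sequences of 8 of the 10 genes were found in the RefSeq table, which gives 250 bases before and 50 bases after each annotated start in build GRCm38.p6. Tubb2b and Khdrbs3 were not matched. The windows of 4 genes are printed: Dapl1 and Atp1b1, which passed as lower in Th17 than in Th1 cells by the most, Plaur, which passed in the other direction, and Dapk1, as an example of a gene below background in both effector populations. Capitals mark matches to the AP-1 letters TGANTCA, the forkhead letters TGTTTAC or the Kruppel-like factor letters CCNCNCCC on either strand, with overlapping matches joined.
Dapl1, chr2:59484403-59484702, plus strand: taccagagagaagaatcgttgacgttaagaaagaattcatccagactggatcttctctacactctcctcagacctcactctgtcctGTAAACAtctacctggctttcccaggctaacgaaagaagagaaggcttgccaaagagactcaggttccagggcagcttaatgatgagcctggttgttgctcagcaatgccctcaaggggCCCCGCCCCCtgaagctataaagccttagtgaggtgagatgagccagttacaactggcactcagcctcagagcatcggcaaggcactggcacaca
Atp1b1, chr1:164458306-164458605, minus strand: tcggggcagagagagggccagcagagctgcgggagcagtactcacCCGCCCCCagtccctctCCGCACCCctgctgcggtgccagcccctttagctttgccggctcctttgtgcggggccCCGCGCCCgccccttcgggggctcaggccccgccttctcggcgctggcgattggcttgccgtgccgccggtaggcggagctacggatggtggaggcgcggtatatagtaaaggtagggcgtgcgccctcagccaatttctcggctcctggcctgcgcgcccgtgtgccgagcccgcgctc
Plaur, chr7:24462233-24462532, plus strand: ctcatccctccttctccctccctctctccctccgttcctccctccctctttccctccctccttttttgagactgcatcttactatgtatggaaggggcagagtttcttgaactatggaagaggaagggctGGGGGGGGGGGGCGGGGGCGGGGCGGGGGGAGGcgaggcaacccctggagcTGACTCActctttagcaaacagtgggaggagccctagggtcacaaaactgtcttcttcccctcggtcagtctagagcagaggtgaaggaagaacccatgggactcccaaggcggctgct
Dapk1, chr13:60601961-60602260, plus strand: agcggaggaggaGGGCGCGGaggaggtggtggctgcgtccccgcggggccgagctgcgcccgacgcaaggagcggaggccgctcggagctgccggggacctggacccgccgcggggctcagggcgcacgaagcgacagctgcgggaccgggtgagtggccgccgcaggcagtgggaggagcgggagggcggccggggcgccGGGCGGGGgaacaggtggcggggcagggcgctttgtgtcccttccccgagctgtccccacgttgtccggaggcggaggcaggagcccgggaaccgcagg

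The 8 windows were of different base composition. The ratio of observed to expected CpG dinucleotides was 0.258 for Dapl1 and 0.265 for Plaur, and lay between 0.762 for Cnn3 and 0.893 for Dapk1 for the other 6 genes. These 6 exceed a ratio of 0.6, which 35.8% of all 32851 windows exceed, and the median was 0.835 for the 8 genes and 0.384 for all windows. All windows here and below include those of genes not detected on the arrays. No share was computed over the genes tested, so nothing is read from the gap in CpG ratio. G and C made up 51.0% of the Dapl1 window, 59.3% of the Plaur window and 83.3% of the Amigo2 window, against a median of 52.7% over all windows.

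An AP-1 match stood in the Plaur window alone, 69 bases before the start, and 7.81% of all windows hold one. The forkhead letters stood in the Dapl1 window alone, on the opposite strand 164 bases before the start, beside 3.65% of all windows. The Kruppel-like letters were present in 8 of 8 windows and in 49.5% of all windows, and in Plaur they lay in a run of G. The fixed letters of that pattern are all C, and every window but that of Dapl1 was richer in G and C than the median window. No allowance was made for base composition, so nothing is read from that excess. E-box letters (CANNTG) were present in Dapl1, Igsf3 and Dapk1 and in 72.3% of all windows. None of the 8 windows held the CREB letters TGACGTCA (1.79% of all windows), the TCF/LEF letters CTTTGA (16%), the ETS letters CCGGAAGT (3.89%) or the NF-kB pattern searched (4.79%). A match is a description of letters and no evidence that a factor binds there.

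**Figure D2:**
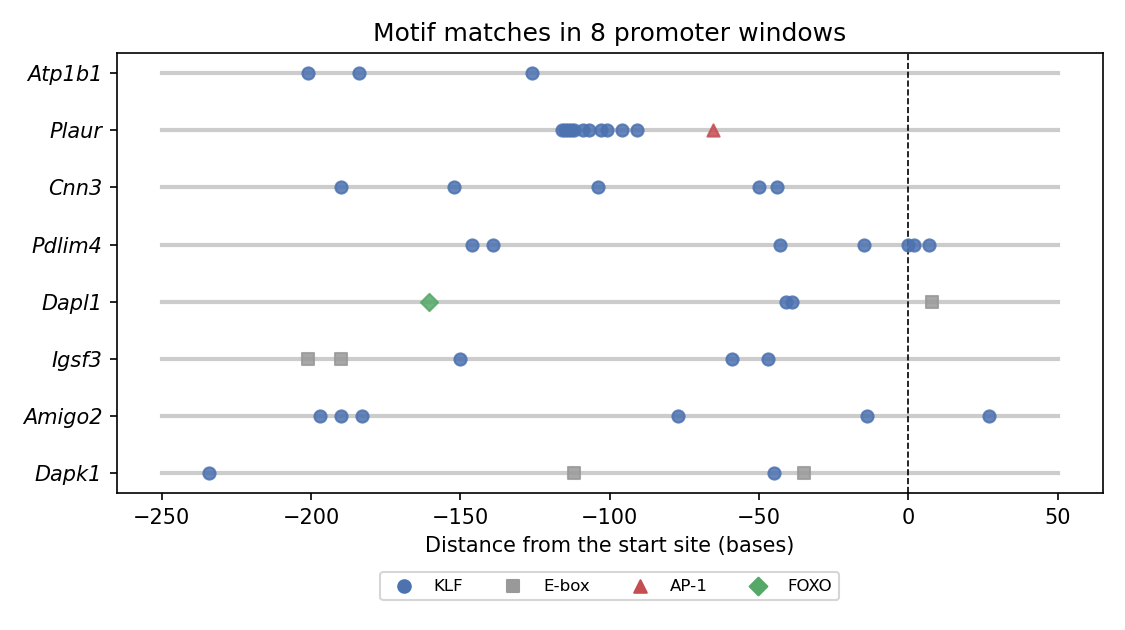
Positions of motif matches, by distance in bases from the annotated start (dashed line), in the promoter windows of the 8 matched genes; each symbol is the centre of 1 match. Kruppel-like matches are present in all 8 windows, the AP-1 match in Plaur and the forkhead match in Dapl1.

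Atp1b1 encodes the beta 1 subunit of the sodium pump, the ATPase that exports sodium and imports potassium, and the beta subunit helps to bring the catalytic alpha subunit to the cell surface. Its level was -2.45, -1.95 and -1.97 in Th1 cells, -4.26, -3.70 and -4.06 in Th17 cells, and 3.34, 3.84 and 3.59 in naive cells. The 3 groups did not overlap, and Th17 cells were lowest. The signal was 52.3-fold lower in Th1 cells and 193-fold lower in Th17 cells than in naive cells. Between Th17 and Th1 cells the difference was -1.88 (95% confidence interval -2.35 to -1.42, adjusted p = 0.000597, limma).

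The other sodium pump genes differed by less. Of 6 other pump genes tested, 2 fell and 1 rose in Th1 cells and 2 fell and 1 rose in Th17 cells. Over all genes 53.9% passed in Th1 cells, 30.4% lower and 23.5% higher, and 54.2% in Th17 cells, 29.7% lower and 24.4% higher. Atp1b2, another beta subunit, fell, with differences of -3.19 in Th1 and -2.29 in Th17 cells (adjusted p = 2.61e-06 and 1.39e-05), and was 0.90 higher in Th17 than in Th1 cells (adjusted p = 0.00819), opposite to Atp1b1. That last call ended within slide 2 and under both normexp settings. The calls of Atp1b2 against naive cells ended under the planned normexp setting (adjusted p = 0.468 in Th1 and 0.51 in Th17 cells, limma). They held once the extreme local backgrounds had been replaced. Atp1b3, the third beta subunit, differed by -0.52 in Th17 cells (adjusted p = 0.00189), which did not pass with slide as a block. In Th1 cells it differed by -0.32 (adjusted p = 0.0206), which did not hold when naive replicate 2, Th1 replicate 2 or Th1 replicate 3 was dropped (adjusted p up to 0.0762). Fxyd5, a small regulatory subunit, was 0.75 higher in Th17 than in naive cells (adjusted p = 0.00224) and 0.74 higher than in Th1 cells (adjusted p = 0.0095). The gene that rose in Th1 cells was Fxyd2, at 0.51 (adjusted p = 0.0213), a call lost without naive replicate 2, Th1 replicate 1 or Th1 replicate 2 (adjusted p up to 0.0626).

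Plaur encodes the receptor of urokinase, which holds that protease at the cell surface, where it turns plasminogen into plasmin. Plaur lay at -1.63, -1.18 and -1.97 in Th1 cells and at -0.03, -0.15 and -1.10 in Th17 cells, against 4.43, 5.04 and 4.46 in naive cells. Every array was above background, and the Th1 and Th17 ranges were only 0.08 log2 units apart. The signal was 75.1-fold lower in Th1 and 33.5-fold lower in Th17 cells than in naive cells. Th17 cells were 1.17 log2 units above Th1 cells (95% confidence interval 0.42 to 1.91, adjusted p = 0.0453). That call held in 3 of 9 fits without 1 array and ended when naive replicate 1 or 3, Th1 replicate 1 or 3, or Th17 replicate 1 or 2 was left out, with adjusted p up to 0.128.

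The protease that Plaur binds went the other way in Th17 cells. Plau, urokinase itself, was at -7.00, -5.79 and -7.49 in Th1 cells, with no array above background, at -2.01, -1.39 and -1.74 in Th17 cells, all above background, and at -7.20, -7.09 and -7.71 in naive cells, again with none above. It was at least 11-fold higher in Th17 than in naive cells (adjusted p = 1.38e-05) and at least 10.4-fold higher than in Th1 cells (adjusted p = 0.000123). Plat, the tissue-type activator, was above background on 1 Th1 array, no Th17 array and all 3 naive arrays, and was at least 4.76-fold lower in Th17 than in naive cells (adjusted p = 3.75e-05). Its fall of 1.91 in Th1 cells (adjusted p = 0.00267) did not pass with slide as a block or within slide 1. Plgrkt, a plasminogen receptor, rose by 1.44 in Th1 and 1.37 in Th17 cells (adjusted p = 9.88e-05 and 0.000121). In the planned normexp setting the calls given here for Plau, Plat and Plgrkt ended, with adjusted p from 0.0612 to 0.919 (limma). All of these calls held once the extreme local backgrounds had been replaced. In all, 3 of 6 tested genes of plasminogen activation rose and 1 fell in each effector population. Among them was Lrp1, a receptor that clears protease complexes, at 0.94 in Th1 cells (adjusted p = 0.0458) and 1.26 in Th17 cells (adjusted p = 0.0139). The Lrp1 call in Th17 cells ended with slide as a block, and that in Th1 cells ended in 7 of 9 fits without 1 array (adjusted p up to 0.142).

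Cnn3 encodes calponin 3, an actin-binding protein. Its brighter probe gave -0.97, -1.39 and -1.25 in Th1 cells, -1.90, -2.03 and -1.91 in Th17 cells and 3.81, 4.34 and 3.96 in naive cells. The second probe was dimmer but gave the same order, at a mean of -3.19 ± 0.05 in Th1, -3.63 ± 0.23 in Th17 and 1.98 ± 0.33 in naive cells (SD, n = 3 each). All 9 arrays were above background on both probes, and the 3 groups did not overlap on either. The brighter probe was 37.8-fold lower in Th1 and 63.4-fold lower in Th17 cells than in naive cells, and the second probe 35.9-fold and 48.9-fold. Between Th17 and Th1 cells the brighter probe passed, at -0.75 (95% confidence interval -1.12 to -0.38, adjusted p = 0.0164), and the second did not, at -0.45 (adjusted p = 0.136). The call of the brighter probe ended with slide as a block (adjusted p = 0.0818), within slide 2 (adjusted p = 0.0625), without Th1 replicate 1 (adjusted p = 0.0504) and without Th17 replicate 2 (adjusted p = 0.0532).

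Cnn2, a calponin found in many cell types, rose where Cnn3 was low. It averaged 0.94 ± 0.11 in Th1, 0.26 ± 0.16 in Th17 and -0.76 ± 0.21 in naive cells (SD, n = 3 each), a rise of 1.69 in Th1 and 1.01 in Th17 cells (adjusted p = 3.07e-05 and 0.000444). The Th17 call did not pass with slide as a block. Tagln2, a related actin-binding protein of leukocytes, fell by 1.06 in Th17 cells (adjusted p = 0.00111, not passed with slide as a block) and differed by -0.43 in Th1 cells (adjusted p = 0.0672). Tagln did not pass in either (adjusted p = 0.619 and 0.232).

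Pdlim4 encodes a protein with a PDZ and a LIM domain that binds actin-associated partners. It lay at -2.35, -1.75 and -3.08 in Th1 cells and at -0.70, 0.16 and -2.20 in Th17 cells, against 3.36, 3.22 and 3.22 in naive cells. Naive arrays were close together, while Th17 replicate 3 fell within the range of the Th1 arrays. The signal was 50.5-fold lower in Th1 and 18.1-fold lower in Th17 cells than in naive cells. The difference of 1.48 between Th17 and Th1 cells did not pass (95% confidence interval 0.21 to 2.76, adjusted p = 0.113). Without Th17 replicate 3, the only array of its slide, it was 2.13 and passed (adjusted p = 0.013), and with slide as a block it was 2.15 (adjusted p = 0.0344).

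Of 5 other PDZ and LIM genes, 3 fell in Th1 cells and 5 in Th17 cells, and none rose. Pdlim1, a cytoskeletal relative, averaged 2.07 ± 0.08 in Th1, 3.40 ± 0.13 in Th17 and 4.69 ± 0.23 in naive cells (SD, n = 3 each), with adjusted p = 2.58e-06 and 9.6e-05 against naive cells. It was 1.32 higher in Th17 than in Th1 cells (adjusted p = 0.000422), with 3 of 3 Th17 arrays above all Th1 arrays. Pdlim7 fell, with differences of -2.20 in Th1 and -2.64 in Th17 cells (adjusted p = 5.38e-06 and 2.33e-06), and Pdlim2, known in T cells for ending NF-kB and STAT4 signals, did so by -0.72 and -0.78 (adjusted p = 0.00176 and 0.00118). Ldb3 differed by -1.18 in Th17 cells (adjusted p = 0.0062, not passed with slide as a block). Pdlim5 differed by -0.52 (adjusted p = 0.0243), and dropping naive replicate 2, naive replicate 3, Th17 replicate 1 or Th17 replicate 2 ended that call (adjusted p up to 0.0789). In the planned normexp setting every call given here for these relatives ended, except that of Pdlim1 in Th1 against naive cells. Pdlim7 then had adjusted p = 0.29 in Th1 and 0.115 in Th17 cells (limma). All of these calls held once the extreme local backgrounds had been replaced.

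Tubb2b encodes a beta tubulin, a building block of microtubules that is best known from neurons. Its brighter probe gave -5.05, -5.11 and -6.11 in Th1 cells, with no array above background, -4.30, -4.70 and -4.48 in Th17 cells and 0.51, 0.82 and 0.70 in naive cells. Th1 and Th17 arrays did not overlap on this probe. It was at least 54.5-fold lower in Th1 cells and 36.0-fold lower in Th17 cells than in naive cells. The second probe gave -4.69, -5.07 and -5.84 in Th1 cells, again with none above background, -5.08, -4.91 and -4.98 in Th17 cells and -1.59, -1.24 and -1.39 in naive cells. On that probe the fall was at least 12.4-fold in Th1 and 12-fold in Th17 cells, and the Th1 and Th17 arrays overlapped. Between Th17 and Th1 cells neither probe passed, at 0.93 (95% confidence interval 0.31 to 1.55, adjusted p = 0.0522) and 0.21 (adjusted p = 0.621). Tubb2b and Tubb2a are near-identical genes, and whether the probes tell them apart was not tested.

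More tubulins fell than rose. Of 15 other tubulin genes tested, 12 fell and 1 rose in Th1 cells, and 8 fell and 3 rose in Th17 cells. Tubb2a was at 0.20, -0.07 and -0.47 in Th1 cells and at 0.06, -0.41 and -0.66 in Th17 cells, against 3.11, 3.53 and 3.15 in naive cells, with adjusted p = 1.21e-05 and 8.48e-06. Tuba1a fell, with differences of -3.21 in Th1 and -3.56 in Th17 cells (adjusted p = 3.92e-05 and 2.06e-05), and Tubb4b likewise, with -1.80 and -1.83 (adjusted p = 1.28e-05 and 1.14e-05). Tuba1c, an alpha tubulin, differed by -1.12 in Th1 and -1.08 in Th17 cells (adjusted p = 0.000507 and 0.00056), and the second call ended with slide as a block. The tubulins that rose, named after their values were seen, were Tubb6 in both populations (0.95 in Th1, adjusted p = 0.00994, and 2.74 in Th17, adjusted p = 3.86e-05), and Tube1 and Tuba8 in Th17 cells. Tube1, above background on 1 of 3 naive arrays, rose by 3.20 (adjusted p = 0.0022, not passed with slide as a block), and Tuba8 by 1.25 (adjusted p = 0.0461), a call lost in 6 of 9 fits without 1 array (adjusted p up to 0.141). In Th1 cells Tuba8 differed by -2.09 (adjusted p = 0.00492, limma), a call that ended with slide as a block and in the planned normexp setting. Between Th17 and Th1 cells 6 tubulins were higher and 0 lower, where 8.28% of all genes were higher and 7.53% lower, and Tubb6 differed by 1.79 (adjusted p = 0.00182).

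Igsf3 encodes an immunoglobulin domain protein of the EWI family, whose members associate with tetraspanins in the membrane. Igsf3 was at -4.57, -5.73 and -4.86 in Th1 cells, -6.09, -4.99 and -6.62 in Th17 cells, and -0.46, 0.06 and -0.30 in naive cells. Th1 and Th17 arrays overlapped, and 3 of the 6 effector arrays were not above background. The measured means were 28.2-fold lower in Th1 and 50.9-fold lower in Th17 cells than in naive cells, from probes above background on 2 and 1 of 3 arrays. Between Th17 and Th1 cells the difference was -0.85 and did not pass (95% confidence interval -1.84 to 0.14, adjusted p = 0.226).

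The EWI relatives did not share one direction. Cd101, an inhibitory surface protein of T cells and myeloid cells, rose by 1.42 in Th1 and 2.15 in Th17 cells (adjusted p = 0.000229 and 2.3e-05). Ptgfrn, which binds tetraspanins, rose by 1.90 and 1.13 (adjusted p = 0.000129 and 0.00189), and Igsf8, another tetraspanin partner, fell, by -1.17 and -0.78 (adjusted p = 0.000223 and 0.00186). With slide as a block the Th17 calls of Ptgfrn and Igsf8 did not pass. These calls also ended in the planned normexp setting, as did the Th1 call of Igsf8 (adjusted p = 0.92, limma). They held once the extreme local backgrounds had been replaced.

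Amigo2 encodes an adhesion protein with leucine-rich repeats. It was at -6.68, -6.12 and -5.36 in Th1 cells and -6.60, -6.66 and -7.55 in Th17 cells, none above background, against -1.19, -0.79 and -0.93 in naive cells. It was at least 17.4-fold lower in Th1 and at least 22.1-fold lower in Th17 cells than in naive cells, and no difference is given between 2 populations below background. Amigo1 fell, with differences of -1.06 in Th1 and -0.70 in Th17 cells (adjusted p = 0.00188 and 0.0135). The Th17 call ended under both normexp settings, and the Th1 call under the planned one. Amigo3 did not pass (adjusted p = 0.449 and 0.25).

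Dapl1 encodes a small protein named for its likeness to death-associated protein. It lay at -2.73, -2.74 and -2.63 in Th1 cells, all above background, at -7.77, -7.71 and -6.27 in Th17 cells, none above background, and at 0.18, 0.10 and 0.05 in naive cells. The 3 groups stood far apart, with Th1 cells between the other two and little scatter among Th1 and among naive arrays. The signal was 6.99-fold lower in Th1 cells and at least 46.8-fold lower in Th17 cells than in naive cells. It was at least 6.69-fold lower in Th17 than in Th1 cells, with a measured difference of -4.55 (adjusted p = 0.000103). The size of the measured difference shrank with the background correction, to -0.98 under normexp with the extreme backgrounds replaced (adjusted p = 0.000282). Within slide 2, which held 2 arrays of each effector population, the difference of Th17 from Th1 cells was -5.05.

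Dapk1 encodes death-associated protein kinase 1, a calmodulin-regulated kinase linked to cell death and autophagy. It was at -7.09, -6.28 and -7.34 in Th1 cells and at -7.72, -7.78 and -7.27 in Th17 cells, none above background, against -1.58, -1.66 and -1.88 in naive cells. It was at least 10.5-fold lower in Th1 and at least 13.3-fold lower in Th17 cells. Of 4 other death-associated genes tested, 1 rose and 2 fell in each population. Dap, which restrains autophagy, rose by 0.76 in Th1 and 1.28 in Th17 cells (adjusted p = 0.0212 and 0.00174), and the Th1 call ended without naive replicate 3, Th1 replicate 1 or Th1 replicate 3 (adjusted p up to 0.0732). Dap3, a mitochondrial ribosome protein, fell, with differences of -0.46 and -0.56 (adjusted p = 0.004 and 0.00136), and both calls ended with slide as a block. Stk17b, a kinase of the same family that is abundant in lymphocytes, fell by 0.84 in Th17 cells (adjusted p = 0.000605, not passed with slide as a block), and Dapk3 fell by 0.42 in Th1 cells (adjusted p = 0.0491), a call lost in 8 of 9 fits without 1 array (adjusted p up to 0.15).

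Khdrbs3 encodes an RNA-binding protein of the STAR family that takes part in alternative splicing. It was at -5.55, -5.86 and -7.15 in Th1 cells and at -6.19, -5.54 and -5.74 in Th17 cells, none above background, against -0.47, -0.28 and -0.80 in naive cells. It was at least 23.8-fold lower in Th1 and at least 30.3-fold lower in Th17 cells than in naive cells. Of its 3 tested relatives, Khdrbs1, Qk and Sf1, 0 passed in any comparison by limma, and 0 had an unadjusted p under 0.05, beside 59.1% of all genes for Th1 cells, 59.7% for Th17 cells (each set against naive cells) and 30.6% between the effector populations. Khdrbs1, known as Sam68, averaged 3.74 ± 0.22 in Th1, 3.63 ± 0.08 in Th17 and 3.56 ± 0.13 in naive cells (SD, n = 3 each).

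Counted over all families, 47 of 66 listed relatives were tested. In Th1 cells 22 fell and 9 rose, 46.8% and 19.1% of them, and in Th17 cells 21 fell and 11 rose, 44.7% and 23.4%, beside the shares of all genes given above. These shares lean on 1 family: tubulins, 15 of the 47, gave 12 of the 22 falls in Th1 cells and 8 of the 21 in Th17 cells. Among relatives above background on all arrays, the largest falls were those of Tubb2a, at -3.38 in Th1 and -3.60 in Th17 cells, while Plat in Th17 cells has only the bound given above. Each of the 10 genes was chosen for a large fall and its relatives were not, so the gap between them is part of the choice. In the normexp setting as planned 7 and 4 relatives passed in Th1 and Th17 cells, and 29 in each after the extreme values had been replaced. Among the calls that ended as planned were those of Cnn2, Tagln2, Fxyd5, Tubb4b and Stk17b in Th17 cells. Those of Tuba1c, Dap and Dap3 ended in both populations.

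**Figure D3:**
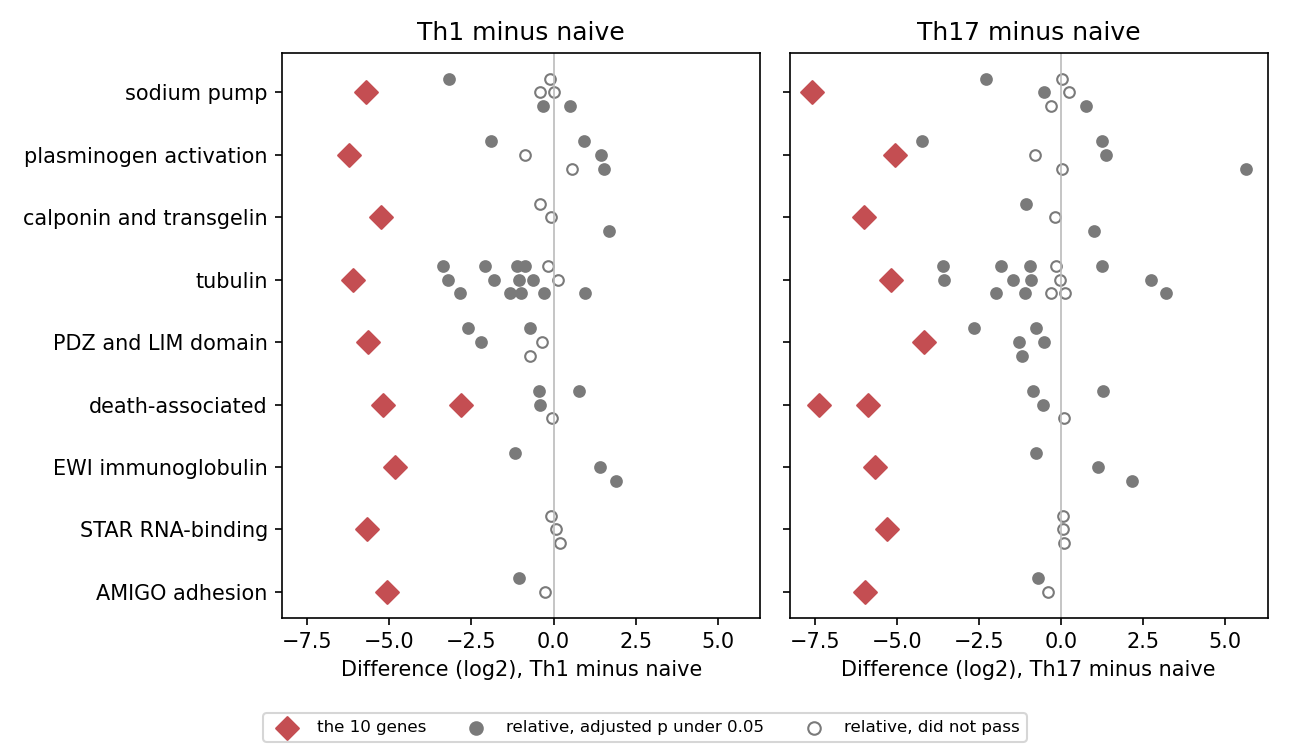
Difference from naive cells (log2) of the 10 genes (diamonds) and of 47 relatives (circles) by family, in Th1 cells on the left and Th17 cells on the right; filled circles passed at an adjusted p under 0.05, and circles are spread vertically so that they can be told apart. The 10 genes lie left of nearly all relatives, Plau lies far to the right in Th17 cells, and the PDZ and LIM relatives lie left of zero in both panels.

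Th17 and Th1 cells were also compared for the 10 genes. The choice of members used these same Th1 and Th17 arrays, and a gene taken for its fall in 1 population can differ between both for that reason, so the p-values are not independent of the choice. Khdrbs3, Amigo2 and Dapk1 have no measured difference. Of the 10 genes 4 passed, 3 lower and 1 higher in Th17 cells, beside 15.8% of all genes, and nothing is read from that share. Every Th17 array lay below every Th1 array for 3 of the 10 and for 16.6% of all genes. Dapl1, Atp1b1 and Cnn3 were lower in Th17 cells and Plaur was higher. The calls of Dapl1 and Atp1b1 held in all 9 fits without 1 array, with adjusted p up to 0.000963 and 0.00402, and within slide 2, and ended in the planned normexp setting. The calls of Plaur and Cnn3 did not hold in all of these fits, as given above. With the extreme local backgrounds replaced, all 4 genes passed. The count was 2 without Th17 replicate 2 and 5 without Th17 replicate 3, where Pdlim4 passed as well. Among the 47 relatives 11 were higher and 6 lower in Th17 cells, 23.4% and 12.8% of them. Tubulins gave 6 of the 11 higher.

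**Figure D4:**
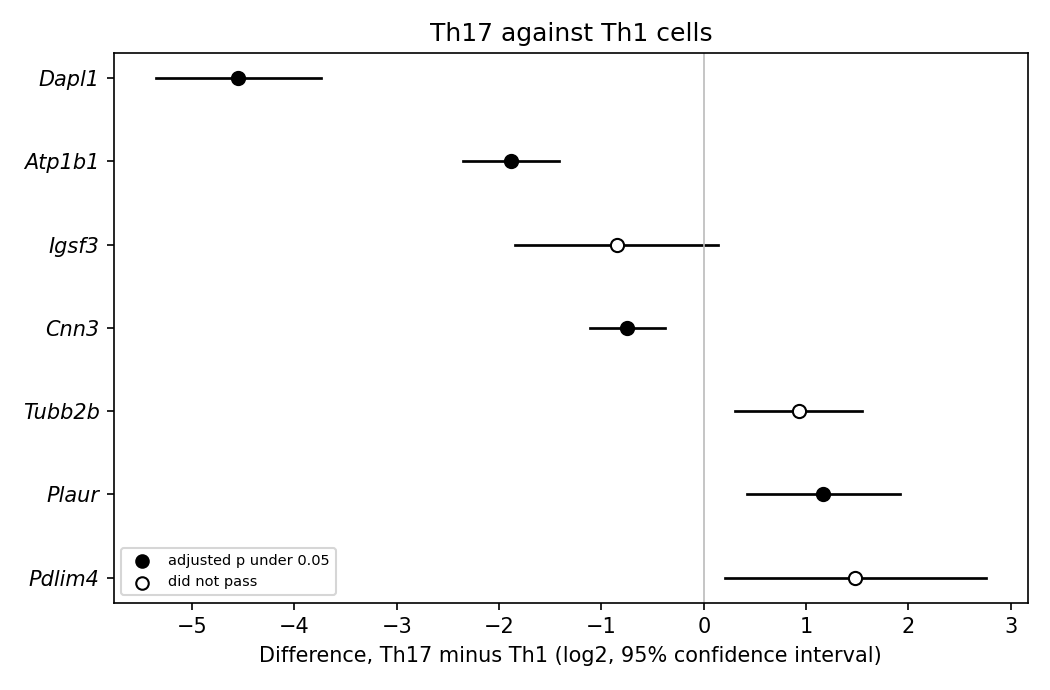
Difference between Th17 and Th1 cells (log2, Th17 minus Th1) of the 7 genes above background in at least 1 of these populations, with 95% confidence intervals from the fit of 9 arrays; filled points passed at an adjusted p under 0.05. Dapl1 at -4.55 and Atp1b1 at -1.88 lie furthest to the left, and Plaur at 1.17 is the point that passed on the right.

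The pattern of the 10 genes over the 9 arrays was summarised as the median over the genes of each level minus the gene's own mean. Of 286 other named genes above background in naive cells and at least 2 log2 units lower in both effector populations, those most like this profile were Wnt5b, a Wnt ligand (Pearson r = 0.9989 over 9 arrays), Actn1, an actin cross-linking protein (0.9982), Ppm1l, a protein phosphatase (0.9975), Zfp354c, a zinc finger protein (0.9972), and Dnajb4, a heat shock co-chaperone (0.9962). The 9 points share 3 groups and are not independent, and the values are a description. The profile was built from the 10 genes themselves, and the other genes were kept for their falls, so high values were built in. Wnt5b differed by -4.39 in Th1 and -4.51 in Th17 cells. Of the 10 genes, Cnn3 followed the profile most closely (0.9963) and Dapl1 least (0.811), followed by Pdlim4 (0.9261).

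Falls of a like size were found outside the 10 among 11639 named genes above background on all naive arrays. The interferon-stimulated genes Oasl1 and Usp18 differed by a mean over both effector populations of -5.45 and -5.08, beside -4.92 for Pdlim4. Oasl1 was above background on 1 Th1 array and all Th17 arrays, and Usp18 on all effector arrays. Zfp354c, Glis2 and Arhgap29 were above background on no effector array, so their falls have no measured size and no order is given.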

How the data were processed

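RNA of 9 sorted samples, 0.5 µg each, was labelled with Cy3 and hybridised to 1 array a sample. The deposited scanner files hold each spot's processed signal, a linear intensity from which background had been subtracted by Agilent Feature Extraction (version 10.7.3.1 per the file headers, 10.5 per the submitters' processing notes), with no scaling between arrays. The authors' deposited value table is on a log2 scale, and its differences between arrays matched those of the scanner values (r = 1). Its baseline per probe is not stated, its column medians were 0.17, 0.11 and -0.0007 for Th1, -0.07, -0.05 and 0.05 for Th17 and 0.24, 0.28 and -0.10 for naive replicates 1 to 3, and it was an alternative only.

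Of 44397 spots an array, 1377 controls and those marked as outliers were left out. From the log2 intensity each array's 75th percentile was subtracted. Symbols came from RefSeq accessions for 27234 of 39429 probes, and 12195 kept the file's name. Probes well above background on at least 3 arrays were kept (23216), and the brightest stood for its gene (19072 genes, 13081 with a symbol). One limma fit (version 3.58.1, under R 4.3.3 with the data.table package at version 1.17.8) covered the 3 groups, with two-sided tests at an adjusted p under 0.05 over all genes. Figures and promoter counts used Python 3.11.15, pandas 2.3.3 and matplotlib 3.10.9. The script was tested on simulated data.

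The 10 genes and all lists were chosen with earlier results of these data known. Relatives are paralogues and partners listed by family, and those named have the highest mean level or up to 3 of the smallest p-values in their list. Also named, after their values were seen, were Fxyd2, Tubb6, Tuba8, Tube1, Lrp1, Pdlim5, Ldb3 and Dapk3. Some listed genes that enter the counts are not reported here by name. Same-numbered arrays of different groups had residual correlations of -0.007 to 0.175 over genes, and differently numbered ones -0.197 to 0.065. The ranges overlap, with the same-numbered one higher, and whether numbers mark pairs was not tested. The main fit did not take numbers as pairs, and replicate number as a block was an alternative. Alternatives were background correction, scaling, filters, blocks, the deposited values and leaving out each array. Normexp (offset 50) used the median spot and local background intensity, since the files hold no mean signal. The header's genome build differs from the reference at hand, so probe positions are not given.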

Additional observations from a re-analysis of the deposited data

Results flagged for a closer look

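Th17 and Th1 cells differed in their distance from naive cells for 4 of the 10 genes, by the test of that difference itself. Of all genes 15.8% passed in the same test, and nothing is read from the share among the 10. The 10 genes were chosen on these same Th1 and Th17 arrays, so the test is not independent of the choice. Dapl1, below background in Th17 cells, differed by -4.55 (Th17 minus Th1, at least 6.69-fold) and Atp1b1 by -1.88. Cnn3 differed by -0.75, with its second probe not passing, and Plaur by 1.17. The Cnn3 call ended with slide as a block and within slide 2, and that of Plaur held in 3 of 9 fits without 1 array. Groups of 3 arrays are too small for a test of single arrays that stand apart.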

How the results depend on the processing

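Every one of the 10 genes stayed below naive cells in all 390 values from the alternatives run. The choice of the genes on these same arrays fixed that direction, so the count is no test of it. Median differences of the 10 genes moved by more than their spread in several settings. For Th1 minus naive cells the median was -2.25 with normexp, -3.19 with normexp after extreme local backgrounds had been replaced (added after seeing the data), -5.30 with the percentile over probes above background on all arrays and -5.20 with every probe on its own, and it ranged from -5.65 to -5.27 over fits without 1 array. For Th17 minus naive cells it was -3.06, -3.16 and, with slide as a block, -5.22, and ranged from -5.87 to -5.50. Of the 10 genes 4 passed between Th17 and Th1 cells, 0 with normexp (3 at an unadjusted p under 0.05) and 4 with the backgrounds replaced. The count was 2 within slides and 2 to 5 without 1 array. Relatives that passed numbered 31, 32 and 17 (Th1 against naive, Th17 against naive, Th17 against Th1), against 7, 4 and 1 with normexp. With the backgrounds replaced 29, 29 and 16 relatives passed. For Th17 against Th1 they numbered 10 with slide as a block and 10 within slides, and the ranges without 1 array were 26 to 31, 30 to 32 and 11 to 16. Over all genes 10289, 10333 and 3015 passed, against 1248, 1230 and 175 with normexp and 9357, 9296 and 2902 with the backgrounds replaced. Within slides the counts were 6546 for Th1 against naive and 1419 for Th17 against Th1, with slide as a block 5242 for Th17 against naive, and without filter 2034 for Th17 against Th1; without Th1 replicate 2 the last was 1924. Tubulins that fell numbered 3 and 2 with normexp. One spot on Th1 replicate 2 had a local background of 168530, against a median of 37 on that array. Scaling to the percentile of probes detected on every array put the all-gene median of Th1 against naive at 0.055, against -0.093, and the share of rises among calls to 55%, against 43.6%. Signs turned for Plat (0.29), Khdrbs1 (-0.41), Amigo1 (0.29) and Dapk3 (0.28) in Th1 against naive, for Khdrbs1 (-0.002) in Th17 against naive, and for Tubb2b (-0.46) and Atp1b2 (-0.41) in Th17 against Th1, all with normexp. With the backgrounds replaced, Igsf3 (0.0062) turned in Th17 against Th1. The cause was not tested. With replicate number as a block, 4 of the 10 genes passed between Th17 and Th1 cells and 31, 33 and 19 relatives passed; different numbers correlated at -0.197 to 0.065. Genes below background have no order between Th17 and Th1 cells, and 3 arrays a group, 1 to 4 of them on a slide, limit what differences between slides and groups can be told apart.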
